A study of Bos taurus with 2 samples.

Results

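The genes described here are 46 genes of mitochondrial fuel oxidation. Of these, 26 belong to the citric acid cycle with its pyruvate entry, refilling and draining reactions, and 20 to fatty acid oxidation. They were chosen by symbol, as every gene probe on the array whose annotated gene name, or whose RefSeq accession, belongs to a listed gene. That rule found 129 of the 43653 distinct probes, and all 46 of the 16959 named genes on the array. Blood RNA was taken from Holstein cattle (Bos taurus) of low feed efficiency, which stands for high residual feed intake, and of high feed efficiency. This intake is what an animal consumes over the amount predicted from its body weight and yield. Each group is 1 whole blood specimen on 1 Cy3-labelled Agilent bovine array. The labels used here give no age, sex, diet or number of animals behind a specimen.

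The citric acid cycle runs in the mitochondrial matrix, where it oxidises acetyl-CoA to carbon dioxide and passes electrons to the respiratory chain. Fatty acids reach the same acetyl-CoA through activation to acyl-CoA, transfer across the inner membrane as carnitine esters, and repeated rounds of beta-oxidation whose electrons also enter the chain. In blood, neutrophils rely mainly on glycolysis, lymphocytes and monocytes oxidise more in mitochondria, and mature red cells have no mitochondria. Cattle absorb little glucose and live largely on volatile fatty acids.

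A value is a spot's background-subtracted median pixel intensity, and its difference is the log2 of low minus high feed efficiency after each array was divided by its 75th percentile. Where several probes of a gene exceeded background on both arrays, the brightest gave the gene its difference. With 1 array per group no difference has a replicate check, a test or a p-value, and the number of arrays limits the precision. Replicate spots of a probe on the same array had an SD of the difference of 0.10 for bright probes (12 probes) and 0.23 for dim ones (24 probes). This is spot error alone and leaves out the spread between animals, and fewer cells of a type cannot be told apart from less RNA per cell. The 10339 genes above background on both arrays had a median difference of -0.04, and their quartiles lay at -0.18 and 0.19 relative to it. Of 27 blood cell markers 26 were above background on both arrays, the exception being the red cell band 3 gene SLC4A1. Of 15 markers of liver, muscle, fat and udder, 5 were above background on both arrays, among them the casein gene CSN2 at 3160 on the low and 3526 on the high efficiency array.

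Signal was read for most members. Above background on both arrays were 42 of the 46 genes, 24 of 26 in the citric acid cycle list and 18 of 20 in the fatty acid oxidation list. Of their 129 probes, 100 were above background on both arrays, 2 on the low efficiency array alone and 1 on the high efficiency array alone, 25 on neither, and 1 PDK4 probe was left out for its flag. No member spot had saturated pixels. Brighter than the median gene were 31 of the 42, so most carried the smaller spot error.

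**Figure D1:**
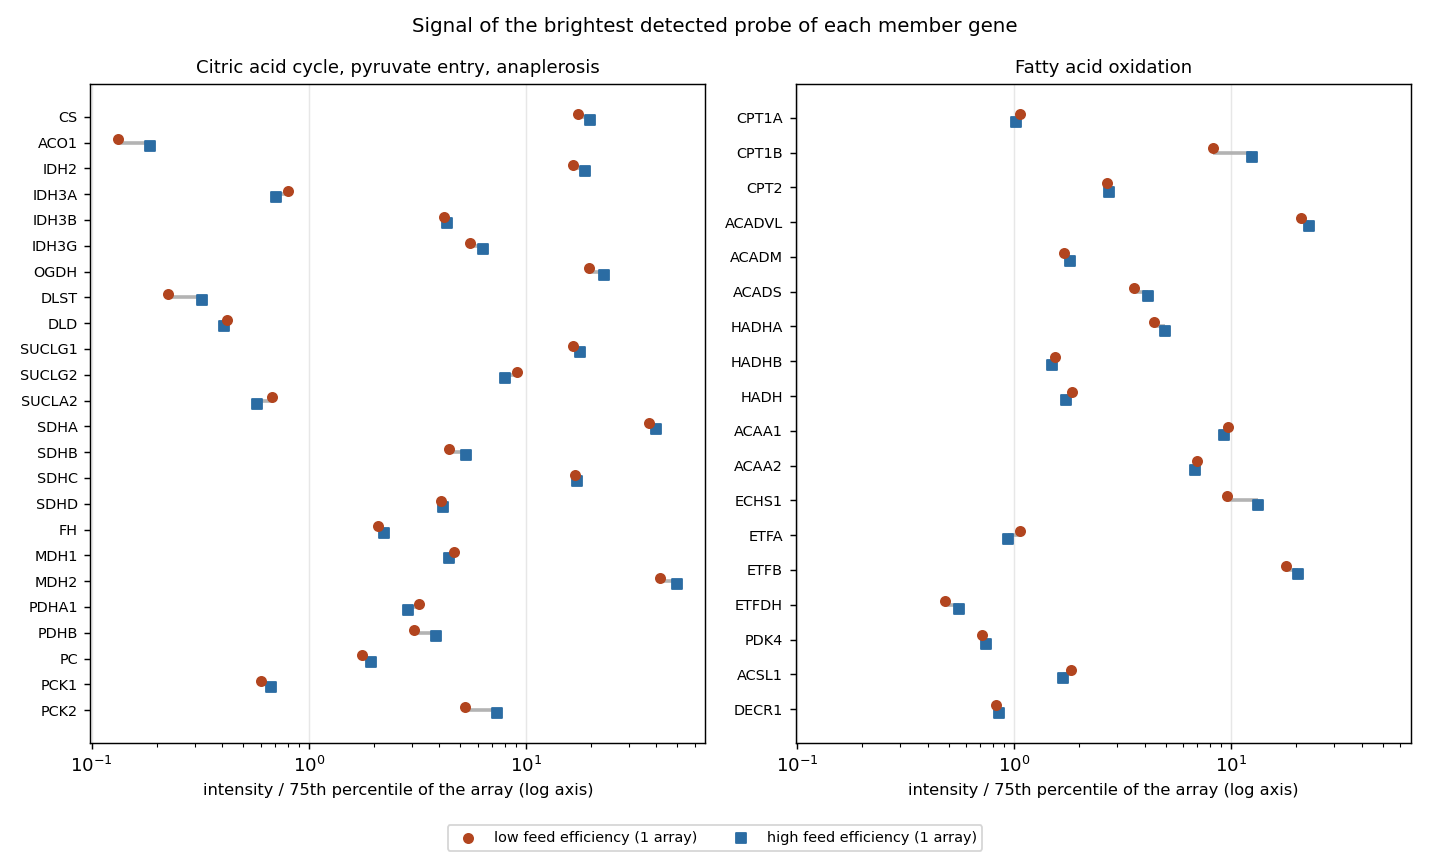
Signal of the brightest detected probe of 42 member genes, as intensity divided by the array's 75th percentile on a log axis, with circles for the low and squares for the high feed efficiency array (1 array each). The paired symbols lie close together for most genes, and the widest gap is that of CPT1B, at 811 on the low and 1015 on the high efficiency array before scaling.

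Few members stood apart between the arrays. Not a single one of the 42 was 2-fold higher or lower with low efficiency, where 0.368% and 0.571% of all genes were. At 1.5-fold none was higher, against 2.68% of all genes, and 1 was lower, against 3.14% of all genes. That gene was CPT1B, the muscle form of the carnitine transferase that admits long-chain fatty acids to mitochondria. With so few genes these shares are near the background and are no result about the members. The calls among all genes rest on the scaling: 277 were 1.5-fold higher and 325 lower, but 1811 and 72 when the arrays were scaled on 7 spike-in probes, which added 0.36 to every difference.

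The citric acid cycle list lay slightly further toward low values than the fatty acid oxidation list. Its median difference was -0.12, or -0.09 relative to all genes, and 17 of 24 members (70.8%) were under the all-gene median. Fatty acid oxidation genes had a median of -0.05, or -0.01 relative to all genes, with 10 of 18 (55.6%) under it. The gap between the medians was -0.08, and with 1 array per group it has no error to be set against. The quartiles of the citric acid cycle list, -0.20 and 0.03 relative to all genes, overlapped those of the fatty acid oxidation list, -0.15 and 0.10. Measured against its own spot SD, 15 of 24 citric acid cycle and 8 of 18 fatty acid oxidation genes lay farther from the median of all genes. Together that was 54.8% of members, against 57.4% of all genes.

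Signal differed between the lists and moved with the difference. Genes were ranked by mean signal and split into 4 bins of like size. In the brightest bin the median difference was -0.11, or -0.07 relative to all genes, and this bin held 10 citric acid cycle and 6 fatty acid oxidation members. Set against genes of their own bin, the medians were -0.07 for the citric acid cycle and -0.03 for fatty acid oxidation, a gap of -0.03. By that measure 16 of 24 and 11 of 18 members lay below. The part of signal in the gap between the lists was not tested beyond this.

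**Figure D2:**
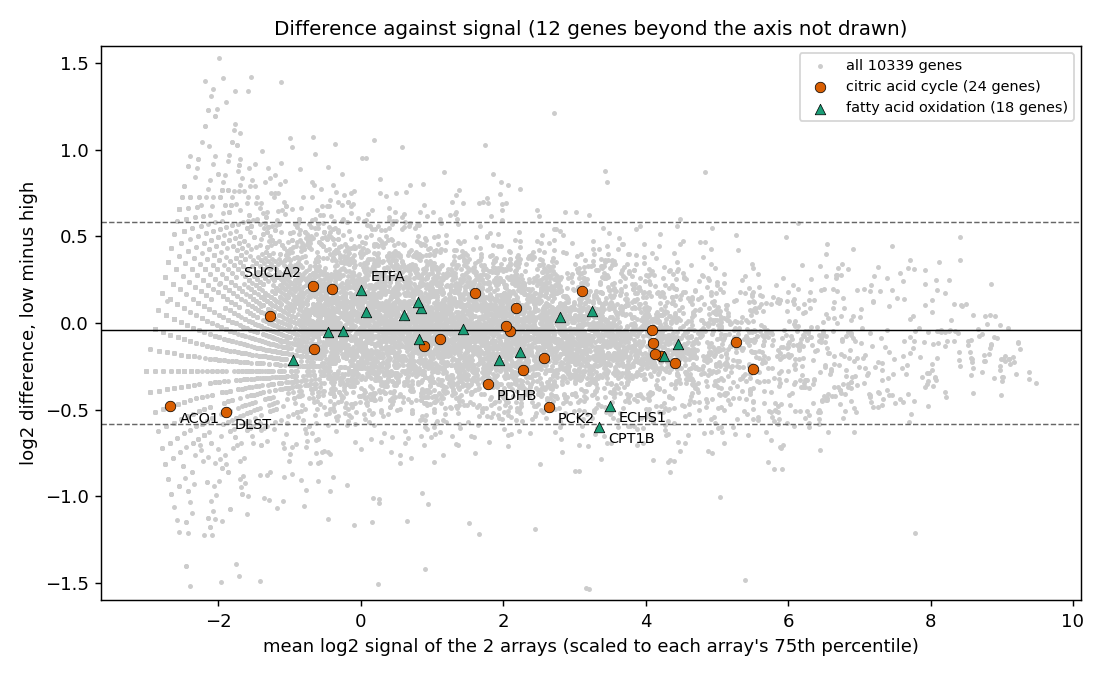
Log2 difference (low minus high feed efficiency) against mean log2 signal for all 10339 genes (grey), citric acid cycle genes (circles) and fatty acid oxidation genes (triangles); 12 genes beyond the axis are not drawn. The solid line is the median of all genes and the dashed lines are 1.5-fold. Members lie inside the grey cloud, and only CPT1B is past 1.5-fold, at -0.60.

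Among the enzymes that open the cycle, citrate synthase (CS), which joins acetyl-CoA to oxaloacetate, had a difference of -0.19 over probes from -0.51 to -0.18. ACO1, the cytosolic aconitase that doubles as an iron-sensing RNA-binding protein, read 13 on the low and 15 on the high efficiency array, just over the background limit of 10.9. Its difference of -0.48 was larger than the dim-spot SD of 0.23, but rested on a single probe, not flagged good on either array. The ACO1 difference was -0.17 with normexp background correction and -0.24 with the uncorrected pixel mean. IDH1, the cytosolic isocitrate dehydrogenase, was above background on neither array by its 1 probe. IDH2, its mitochondrial NADP-linked counterpart, had -0.18 with its 3 probes within 0.05 of each other. The NAD-linked enzyme of the cycle has a catalytic subunit, IDH3A, with 0.20, and partners IDH3B and IDH3G, with -0.05 and -0.20. The IDH3B value came from a spot not flagged good on either array, and its other probes had 0.25, -0.01 and 0.15. The other IDH3A probe had -0.21, so the subunits did not separate beyond the spread of probes.

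The 2-oxoglutarate dehydrogenase complex had the cycle member farthest from all genes. DLST, its succinyl-transferring core, read 22 on the low and 26 on the high efficiency array, a difference of -0.52, while its other probe had -0.18. OGDH, the decarboxylating subunit and one of the brightest members, read 1925 on the low and 1867 on the high efficiency array, a difference of -0.23. Relative to all genes that was -0.19, a sign that turned under 3 of 14 alternatives, to 0.17 with normexp background correction. All 3 used the pixel mean in place of the median. The OGDH spot on the high efficiency array had a pixel mean of 1560 against its median of 1867, and was not flagged good. DLD, the lipoamide dehydrogenase shared with the pyruvate dehydrogenase complex, had 0.04, and its other probe 0.40. The subunits therefore spread over more than the spot error, but so did the probes of DLST and of DLD.

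The succinyl-CoA ligase subunits included the highest values of the cycle list. SUCLA2, the ATP-forming beta subunit, read 66 on the low and 47 on the high efficiency array, a difference of 0.21. Relative to all genes that was 0.25, just over the dim-spot SD of 0.23. Dimmer SUCLA2 probes had 0.14 and -0.05, so the mean over probes was 0.10. SUCLG2, the GTP-forming beta subunit, read 898 on the low and 652 on the high efficiency array, a difference of 0.19, and the next brightest probe had 0.13. A dimmer SUCLG2 probe read 34 on the low and 43 on the high efficiency array, a difference of -0.61, so the mean over probes was -0.10. SUCLG1, the alpha subunit that pairs with either, had -0.11.

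Succinate dehydrogenase, the enzyme shared by the cycle and the respiratory chain, had 3 subunits within the bright-spot SD of all genes and 1 below. SDHA, its flavin subunit, read 3636 on the low and 3243 on the high efficiency array, and its difference of -0.11 came with 4 probes between -0.23 and -0.07. SDHB, the iron-sulphur subunit, had -0.27, or -0.23 relative to all genes, on a single probe whose high efficiency spot was not flagged good. The membrane anchors SDHC and SDHD had -0.04 and -0.02. Fumarase (FH), which makes malate, had -0.09 over 4 probes from -0.21 to 0.03. MDH2, the malate dehydrogenase that closes the cycle, read 4084 on the low and 4051 on the high efficiency array, a difference of -0.26, and its 3 probes lay between -0.37 and -0.26. MDH1, its cytosolic counterpart, had 0.08, and another probe had -0.24.

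Pyruvate enters the cycle through the pyruvate dehydrogenase complex or through pyruvate carboxylase. PDHA1, the catalytic alpha subunit, had 0.18 on 1 of 4 probes. Its partner PDHB had -0.35 at 298 on the low and 314 on the high efficiency array. The PDHB value is doubtful: the pixel mean of this spot was 299 on the low but 3719 on the high efficiency array, 11.8 times the pixel median there, and the spot was not flagged good. Of 200 member spots above background on both arrays it alone had a mean over 2 times the median. The second PDHB probe, flagged good on both arrays, read 155 on the low and 125 on the high efficiency array, a difference of 0.04. DLAT, the acetyl-transferring core, was above background on neither array by its 1 probe, which had a pixel mean of 84 against a median of 9 on the low efficiency array.

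Pyruvate carboxylase (PC), which refills the cycle, had -0.13. The phosphoenolpyruvate carboxykinases instead draw oxaloacetate out of it. The cytosolic form PCK1, a liver and kidney enzyme of glucose synthesis, had -0.15 on 1 of 3 probes. PCK2, the mitochondrial form, read 517 on the low and 597 on the high efficiency array. Its difference was -0.48, against a bright-spot SD of 0.10, and the second probe, at 409 on the low and 438 on the high efficiency array, had -0.37. Both PCK2 probes thus lay below the median of all genes by more than spot error, and neither reached 1.5-fold.

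**Figure D3:**
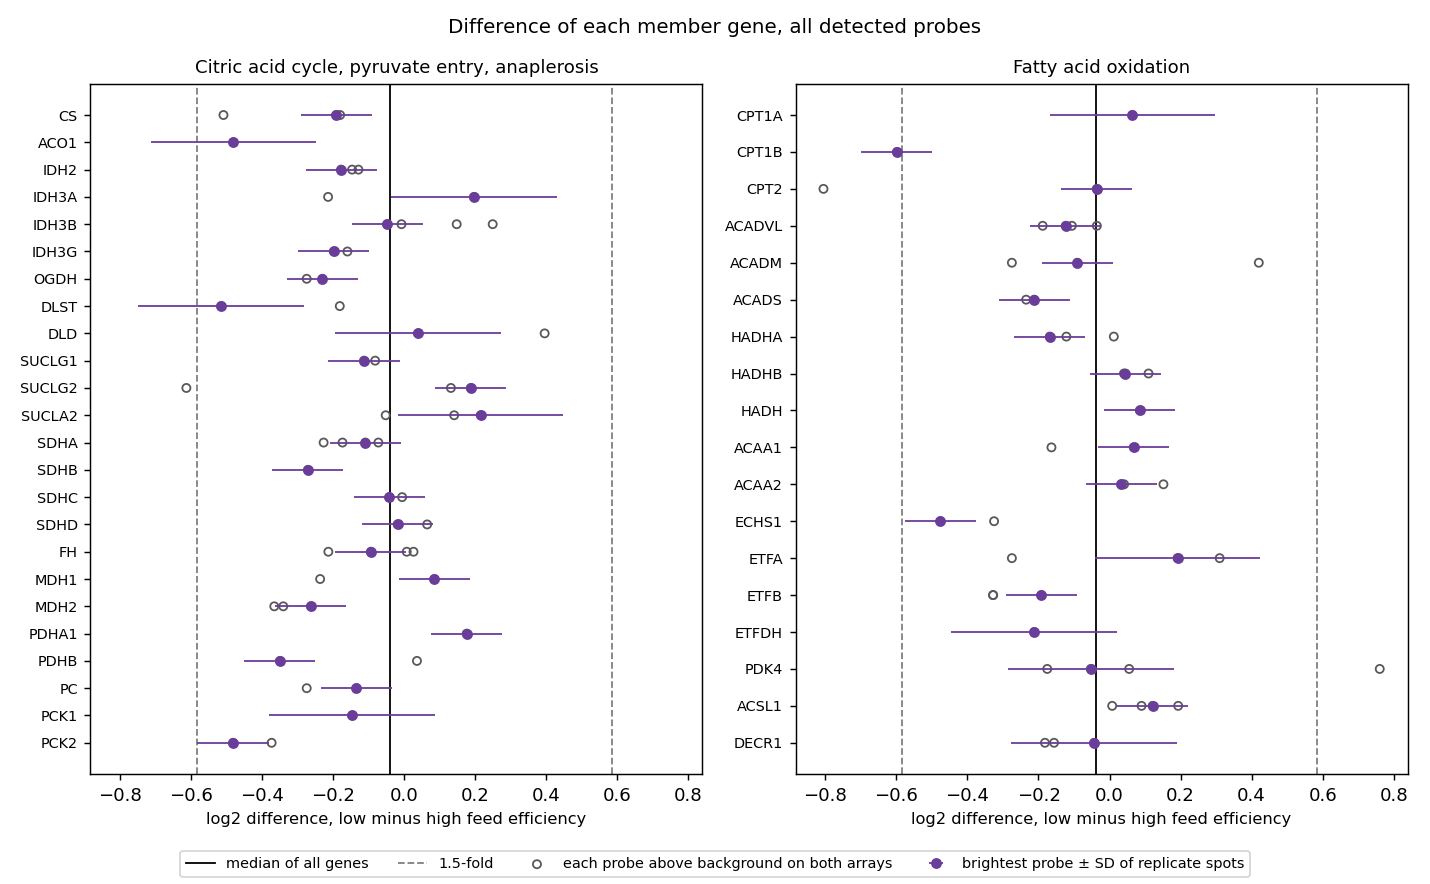
Log2 difference (low minus high feed efficiency) of 42 member genes: filled points are the brightest probe with the SD of replicate spots (0.10 for bright, 0.23 for dim genes) and open points every probe above background on both arrays. The solid line is the median of all genes, -0.04, and the dashed lines are 1.5-fold; CPT1B alone has its brightest probe past 1.5-fold, while single dimmer probes of SUCLG2, CPT2 and PDK4 also pass it.

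Fatty acid oxidation starts with activation and carnitine transfer, and here 1 of the 4 members stood apart from the others. CPT1B read 811 on the low and 1015 on the high efficiency array, a difference of -0.60, or 1.51-fold lower with low efficiency, on spots flagged good with pixel means of 803 on the low and 1014 on the high efficiency array. Relative to all genes it was -0.56, at percentile 2.9 of all genes and beyond the bright-spot SD of 0.10, but on 1 of 3 probes. The other CPT1B probes were above background on neither array, at 7 on the low and 4 on the high efficiency array, and at 3 on the low and 0 on the high efficiency array. CPT1A, the liver form and the form most tissues use, had 0.06 on 1 of 2 probes. ACSL1, which activates long-chain fatty acids, had 0.12 with 4 probes between 0.01 and 0.19. CPT2, the inner membrane transferase, had -0.04, and its dim second probe had -0.81 at 18 on the low and 26 on the high efficiency array.

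The acyl-CoA dehydrogenases take fatty acids of decreasing chain length. ACADVL, for very long chains and the brightest of the list, read 2066 on the low and 1860 on the high efficiency array, and its difference of -0.12 came with 4 probes between -0.19 and -0.04. ACADS, for short chains, read 351 on the low and 336 on the high efficiency array, a difference of -0.21 with -0.23 at its other probe. The brighter ACADS spot was not flagged good on either array. The gene had 0.01 with normexp background correction, which works on the pixel mean, and -0.03 with the uncorrected pixel mean. ACADM, for medium chains, read 167 on the low and 147 on the high efficiency array. Its difference was -0.09, but its dimmer probes had 0.42 and -0.27. ACADL, for long chains, reached the background limit on the high efficiency array alone, at 1 on the low and 21 on the high efficiency array. By this probe it was at least 2.31-fold lower with low efficiency, counted from the lowest signal above background on the low efficiency array. Its other probes, at 2 or less on both arrays, gave no value.

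The later steps of each round also held both signs. ECHS1, the enoyl-CoA hydratase of the second step, read 936 on the low and 1076 on the high efficiency array, a difference of -0.48. Its other probe, at 113 on the low and 117 on the high efficiency array, had -0.33, so ECHS1 like PCK2 was below the median of all genes on both probes by more than spot error. That was also so for all measured probes of MDH2, ETFB and IDH3G, among others. HADHA and HADHB, the subunits of the trifunctional protein that handles long chains, had -0.17 and 0.04. HADH, for shorter chains, had 0.09 on 1 of 2 probes. The thiolases ACAA1, of peroxisomes, and ACAA2, of mitochondria, had 0.07 and 0.03, the second with 3 probes between 0.03 and 0.15. The other ACAA1 probe, nearly as bright at 781 on the low and 723 on the high efficiency array, had -0.16, so the mean over its probes was -0.05. DECR1, which deals with double bonds, had -0.04.

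Electrons from these dehydrogenases pass to the electron transfer flavoprotein. ETFA, its alpha subunit, read 105 on the low and 76 on the high efficiency array, a difference of 0.19, or 0.23 relative to all genes, no larger than the dim-spot SD of 0.23, with other probes at 0.31 and -0.27. ETFB, the beta subunit, read 1754 on the low and 1656 on the high efficiency array, a difference of -0.19, with both other probes at -0.33. ETFDH, the membrane enzyme that hands the electrons on, read 47 on the low and 45 on the high efficiency array, a difference of -0.21 on a single probe.

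Of the regulators, PPARA, the nuclear receptor that induces fatty acid oxidation genes in liver, was above background on neither array by its 1 probe. PDK4, the kinase that turns off pyruvate dehydrogenase when fat is used, read 70 on the low and 60 on the high efficiency array, a difference of -0.05. Another PDK4 probe read 41 on the low and 20 on the high efficiency array, a difference of 0.76, and the remaining ones had 0.06 and -0.18, so the gene has no settled direction here.

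Probes of the same gene set the precision for these small differences. In 34 members with at least 2 probes above background, the median range over probes was 0.17, against 0.23 in 4995 such genes of the array. All probes lay on one side of the median of all genes in 19 of the 34 (55.9%), against 58.8% of all such genes. Pearson's r between the differences of the 2 brightest probes was 0.43 across these 34 genes and 0.36 across all 4995. These are genes on the same pair of arrays, not independent replicates. A range over 1.5-fold occurred in SUCLG2, CPT2, ACADM, ETFA and PDK4.

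Relative to all genes, 25 of 42 members (59.5%) stayed on one side under every alternative processing that gave a value, 15 below and 10 above, against 69.5% of all genes. These shares are not like for like: 34 of 42 members but 4995 of 10339 genes had at least 2 probes above background. The mean or median over probes changes the value of such genes alone. Scaling on detected probes or spike-ins could move no gene to the other side, as it adds the same amount to every gene. Relative to all genes PCK2 ranged from -0.45 to -0.31, CPT1B from -0.57 to -0.43 and ECHS1 from -0.45 to -0.33 over the alternatives. Among members above the median of all genes, PDHA1 ranged from 0.17 to 0.23 and ACSL1 from 0.11 to 0.17. PDHA1 had 1 of 4 probes above background on both arrays and CPT1B 1 of 3, so the mean or median over probes could not move them.

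**Figure D4:**
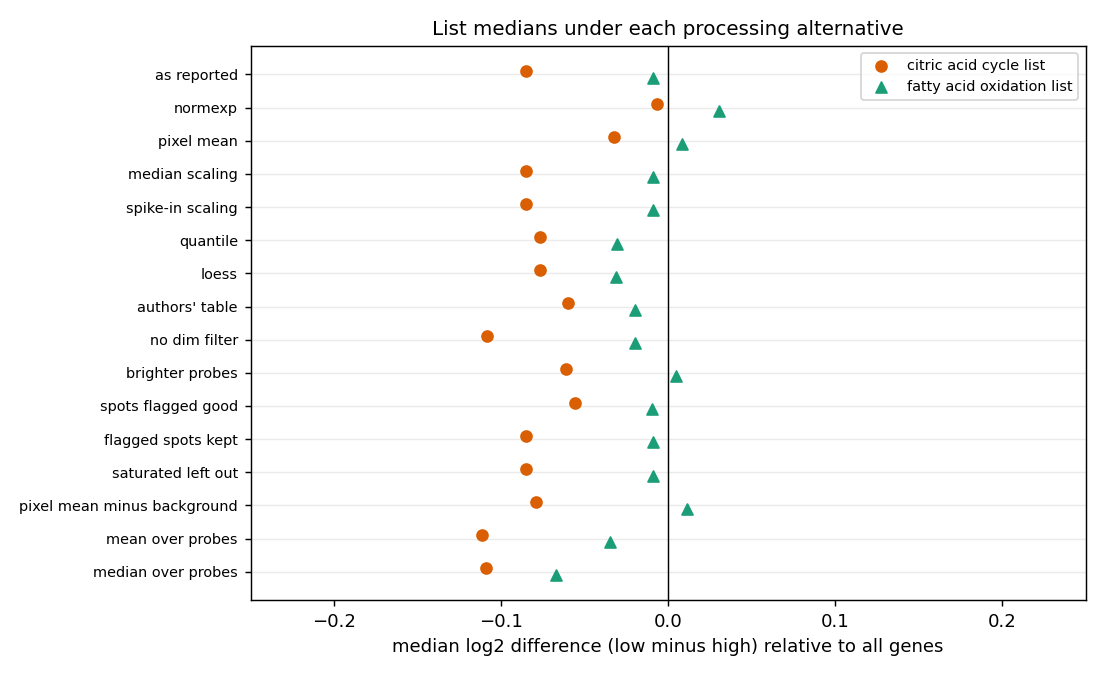
Median log2 difference (low minus high feed efficiency) relative to all genes for the citric acid cycle (circles) and fatty acid oxidation lists (triangles), as reported and under 15 processing alternatives. Circles lie between -0.11 and -0.01, and triangles on both sides of 0, from -0.07 to 0.03.

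Other genes of the same pathways showed no common shift. Of 31 further genes around the cycle and pyruvate, 23 were measured, with a median of 0.04 relative to all genes, 14 above and 9 below. SDHAF3, an assembly factor of succinate dehydrogenase, was 1.5-fold and also 2-fold higher, and no gene of this list was 1.5-fold lower. It read 109 on the low and 44 on the high efficiency array, a difference of 1.03 on a single probe. NNT, which makes NADPH from the proton gradient, read 57 on the low and 35 on the high efficiency array, a difference of 0.43, but -0.08 at its other probe. MPC1, of the mitochondrial pyruvate carrier, read 914 on the low and 1063 on the high efficiency array, a difference of -0.49.

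Of 48 further genes around fatty acid oxidation 37 were measured, with a median of 0.001 relative to all genes, 20 above and 17 below. CROT, a peroxisomal carnitine transferase for medium chains, was the only one 1.5-fold higher, none was 1.5-fold lower and none 2-fold apart. It read 29 on the low and 14 on the high efficiency array, a difference of 0.78, and 0.11 at its other probe. OXCT1, which lets cells outside the liver use ketone bodies, read 78 on the low and 47 on the high efficiency array, a difference of 0.46, but 0.00 at its other probe. ACOT2, a mitochondrial thioesterase, read 15 on the low and 17 on the high efficiency array, a difference of -0.46 near background.

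Markers of 7 kinds of blood cell, which differ in mitochondrial content, moved both ways. Relative to all genes, the 6 neutrophil markers had a median of 0.15, with 5 above 0, and a summed signal in multiples of the 75th percentile of 809 on the low and 715 on the high efficiency array. By the same measure the 3 cytotoxic lymphocyte markers NKG7, GZMB and PRF1 had a median of -0.25, all below 0, and a summed signal of 70.9 on the low and 83.8 on the high efficiency array. Medians lay closer to all genes for the 3 T cell markers, at -0.08 and sums of 72.3 on the low and 78.9 on the high efficiency array, and for the 3 B cell markers, at 0.08 and sums of 35.5 on the low and 33.7 on the high efficiency array. The 3 platelet markers had a median of -0.02 and sums of 120.6 on the low and 125.2 on the high efficiency array. Single genes of these lists spread to both sides of 0. They ran from -0.12 to 0.26 for T cells, from -0.20 to 0.15 for B cells and from -0.41 to 0.22 for platelets. The monocyte markers had a median of -0.08 and sums of 137.9 on the low and 127.9 on the high efficiency array, but their 3 genes ran from -0.82 for CSF1R to 0.35 for LYZ.

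Red cell markers also divided. Of 5 measured, 4 globin genes lay above the median of all genes, from 0.04 for HBM to 0.36 for HBG, and the list had a median of 0.17 and sums of 513 on the low and 445 on the high efficiency array. The exception was ALAS2, the enzyme that starts heme synthesis in red cell precursors, which still carry mitochondria. It had a difference of -1.42 on a single probe, at 112 on the low and 248 on the high efficiency array. Of the 26 measured blood markers, 6 lay within the spot SD of the median of all genes. The part of the markers in the differences of the oxidation genes was not tested.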

How the data were processed

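Per the labels, Cy3-labelled cRNA made from blood RNA was read on 1 Agilent bovine array for each group. The deposited scanner intensity values at 532 nm were written by GenePix Pro 6.1.0.4 on a GenePix 4000B, per the file headers, with a background from negative controls subtracted and no normalization. Agilent Feature Extraction is named in the submitters' processing notes, but the files lack its signal column. The percent of saturated pixels and the flag score (100 good, 0 unflagged, -50 not found) were read from those deposited files too. The authors' deposited table of log2 values, with a median of 4.34 on both arrays, followed the scanner values only after a move by 1 row (Spearman's rho 0.077 and 0.072 before, 1.00 and 1.00 after, low and high feed efficiency). It served as an alternative after that move, and none of the sources used here states how it was normalized.

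Bright spots flagged not found (408 and 283 in low and high feed efficiency) were left out on both arrays, leaving 43096 probes. Each array was divided by its 75th percentile (98 and 81) and taken to log2. Above background meant over the median of 153 negative control spots plus 3 robust SDs, 10.9 on both arrays, which 56.5% and 52.7% of probes passed. Probes were named by RefSeq accession (26743), symbol (5971) or synonym (141) through a table of the assembly ARS-UCD2.0; another 1662 go by the array's own name, and 9136 are unnamed. Normexp was applied to the pixel mean, not the median, and used limma 3.58.1 with an offset of 50. The rest used Python 3.11.15. On simulated data only the step from scaled probe values to gene differences was tested, not the filters, background limit or scaling.

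No test was made, with 1 array per group. Differences are described at 1.5-fold and 2-fold beside all genes. Intensities were given for the 5 members of each list farthest from all genes, its 3 brightest, those past 1.5-fold, those above background on 1 array only, and those whose probes lay on both sides of 0 and over 1.5-fold apart. In the lists of other genes the 3 farthest and any past 2-fold were named. Further probes and spot values were added where a result rests on them. The members and lists were chosen with earlier results of these data known. Alternatives were 2 other background treatments, both applied to the pixel mean, and scaling on detected probes or spike-ins. Others were quantile and loess normalization, the authors' table, filters on dim, flagged and saturated spots, the mean or median over probes, and shorter lists. Chosen after seeing the data were subtraction of the fixed background from the pixel mean, members with agreeing probes, and genes of like signal.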

Additional observations from a re-analysis of the deposited data

How the results depend on the processing

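The median of the citric acid cycle list relative to all genes stayed below 0 under all 18 alternatives, from -0.11 (mean over probes) to -0.01 (normexp), where little of it was left. That of fatty acid oxidation kept its sign under 14 of 18, from -0.07 to 0.03, and the gap between them ran from -0.09 to -0.03 over 17. Scaling on detected probes or on spike-ins could not change these values, as it adds the same amount to every gene. Leaving out saturated spots removed no member spot. The other citric acid cycle genes ranged from -0.01 to 0.06 and the other fatty acid oxidation genes from -0.03 to 0.04. The count of members 1.5-fold higher was 0 throughout, and with no test there is no p-value to set beside it. The count 1.5-fold lower was 1, but 0 with spike-in scaling, quantile and loess normalization, the authors' table and at 2-fold. It was 2 without the filter on dim probes (CPT1B and ACADL) and 2 with the pixel mean minus background (PDHB and CPT1B). With normexp and with the uncorrected pixel mean the 1 gene was PDHB, at -3.53 and -3.73, not CPT1B, at -0.45 and -0.53; the PDHB value follows the spot whose pixel mean far exceeds its median. Of 624 values of single members under alternatives, 515 moved by less than the spot SD and 109 by more, and CPT1B stayed negative throughout. Spike-in scaling adds 0.36 to every difference, more than either spot SD, so the 109 include every member under that scaling. Among all genes 101 were 1.5-fold higher and 103 lower with normexp, against 277 and 325, and 1701 and 1797 without the filter on dim probes. Signal near background limits ACO1, DLST and ACADL most. No paired analysis was possible because each group has 1 array.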
